A study of Mus musculus with 16 samples.

Results

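Obsl1, Speg, Myom1, Myom2 and Myom3 encode proteins of the sarcomere's M-band or their close relatives, and these 5 genes were followed through left ventricles of mice with a mutant splicing factor. They were taken by gene symbol from a table of 56953 genes, and their splicing events, 72 in all over 3 comparisons, were taken by the same symbols. All 5 passed the filter on low counts. In hearts with the mutation, Myom3 rose 4.63-fold and Myom1 1.27-fold, and Myom3 fell again to 0.503 of that level with a virus carrying Tnpo3. The Myom1 rise was close to the threshold and passed it in 12 of 25 alternative settings. No splicing event of the 5 genes passed the rule for a change in any comparison.

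The study used Bl6J mice of both sexes, 4 in each of 4 groups, and the sex of single mice is not given. P635L mice were homozygous for a missense mutation of RBM20, a splicing factor that acts on transcripts of the cardiac sarcomere, and WT mice did not carry it. Every mouse, controls included, was injected at an age of 4 weeks with 1e12 viral genomes of AAV9, a vector that reaches the heart from the blood. The injection was into the tail vein. The virus of the Tnpo3 groups carried the cDNA of Tnpo3, whose product carries splicing factors with arginine- and serine-rich domains into the nucleus, and the virus of the Ctr groups carried pCAG-iCre-T2A-eGFP. That control virus holds the genes of Cre recombinase and a green fluorescent protein behind a promoter that is not specific to one cell type, and their expression was not measured here. The mice were 16 weeks old, 12 weeks past the injection, when polyadenylated RNA of their left ventricles was collected for sequencing. Each mouse gave 1 library. The names of the groups join genotype and virus: P635L Tnpo3, P635L Ctr, WT Tnpo3 and WT Ctr.

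The M-band is the transverse line in the middle of the sarcomere, where neighbouring myosin filaments are tied together and the end of titin is anchored. Myomesins form elongated dimers that bridge the filaments. Obscurin and its relatives are large proteins of immunoglobulin domains that bind titin and myomesin there, and Speg, a kinase of the same family, is known in heart muscle from the junctions between the sarcoplasmic reticulum and the T-tubules.

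Library totals ran from 28493249 to 85922669 counts. A single gene, ENSMUSG00000119584, took 20% to 22.7% of the counts in 3 libraries, WT Ctr replicates 2 and 4 and WT Tnpo3 replicate 4. Xist exceeded the Y-linked genes in 3 libraries, all of them WT, so the mix of sexes differed between the genotypes. Tnpo3 lay between 231 and 723 CPM (counts scaled to library size with TMM factors) in the libraries given its virus and between 41.6 and 49.4 CPM in the others. All 7 ventricular muscle markers were above 1 CPM in every library, and their summed level was 75800 to 93000 CPM in WT Ctr, 53700 to 58000 in P635L Ctr and 58900 to 68800 in P635L Tnpo3. The markers did not fall evenly in P635L Ctr against WT Ctr. Myl3, Tnni3, Myh6 and Myl2 had log2 fold changes of -1.39, -0.81, -0.64 and -0.61 and an edgeR adjusted p under 0.05. Tnnt2, Actc1 and Pln, at -0.23, -0.27 and -0.21, did not pass. In RNA of a whole ventricle, fewer cells of a type and less RNA per cell cannot be told apart, and the part of single genes was not tested.

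3 stretches of sequence frame the results and are shown before the values. The first 2 are the alternative exons of Myom1 and Obsl1 that the splicing tables hold with intermediate or low inclusion. Each is given as the transcript in GENCODE M21 reads, with the exon in capitals and 3 bases of each neighbouring exon in lower case. The Myom1 exon is exon 18 of 38 in transcript Myom1-202, on the plus strand at chr17:71082203-71082496 in GRCm38. The Obsl1 exon is exon 3 of 5 in transcript Obsl1-205, on the minus strand at chr1:75492067-75492342 in GRCm38. Both are coding, and their lengths of 294 and 276 bases are multiples of 3.
Myom1 exon of 294 bases: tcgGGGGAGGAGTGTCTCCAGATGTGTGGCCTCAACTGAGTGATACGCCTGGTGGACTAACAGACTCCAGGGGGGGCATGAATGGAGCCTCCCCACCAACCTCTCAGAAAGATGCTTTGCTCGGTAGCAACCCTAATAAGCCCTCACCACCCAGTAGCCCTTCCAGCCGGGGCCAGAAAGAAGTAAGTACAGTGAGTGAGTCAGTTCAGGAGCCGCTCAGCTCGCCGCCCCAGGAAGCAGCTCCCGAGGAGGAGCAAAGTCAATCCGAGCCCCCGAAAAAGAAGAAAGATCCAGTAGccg
Obsl1 exon of 276 bases: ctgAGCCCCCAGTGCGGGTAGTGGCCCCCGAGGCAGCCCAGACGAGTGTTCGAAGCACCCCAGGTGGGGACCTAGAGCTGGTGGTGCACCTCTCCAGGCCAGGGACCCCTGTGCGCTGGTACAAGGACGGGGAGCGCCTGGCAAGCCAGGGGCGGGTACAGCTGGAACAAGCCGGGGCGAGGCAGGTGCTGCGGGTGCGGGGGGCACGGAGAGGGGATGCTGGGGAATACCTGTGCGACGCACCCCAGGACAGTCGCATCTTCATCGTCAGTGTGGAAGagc
The third is a Speg exon with a pair of acceptor sites 5 bases apart, shown for both forms with 15 bases of each neighbouring exon and with the bases between the acceptors in capitals. It is exon 3 of 6 in transcripts Speg-208 and Speg-214, on the plus strand, and spans chr1:75384034-75384068 in GRCm38 with the upstream acceptor.
Speg exon from the upstream acceptor, 35 bases: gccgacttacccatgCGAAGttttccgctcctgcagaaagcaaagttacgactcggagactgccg
Speg exon from the downstream acceptor, 30 bases: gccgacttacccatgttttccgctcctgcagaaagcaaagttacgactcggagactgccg
The form from the downstream acceptor has a length that is a multiple of 3, and the other does not.

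Among the myomesins, Myom2 and Myom1 were the abundant ones. Per kilobase of exon, Myom2 stood at 169 CPM in WT Ctr, Myom1 at 128, Speg at 28.2, Obsl1 at 20.7 and Myom3 at 0.729. Read as shares of the summed myomesin level per kilobase, Myom2 made up 56.4 ± 4.79% and Myom1 43.4 ± 4.75% in WT Ctr (SD, n = 4 each). The ranges, 50.5 to 60.9% and 38.9 to 49.2%, did not overlap there, and those of P635L Ctr, 50.3 to 54.3% and 44.9 to 48.7%, did not either. They overlapped in WT Tnpo3, at 49.6 to 62% and 37.7 to 50.1%, and in P635L Tnpo3, at 45.2 to 57.5% and 41.9 to 54%. The shares of Myom2 and Myom1 fill nearly the whole sum in each library, so their ranges mirror each other. An overlap shows only that Myom1 exceeded Myom2 in some library. Myom3 made up 0.249 ± 0.0384% in WT Ctr, 0.971 ± 0.139% in P635L Ctr and 0.63 ± 0.154% in P635L Tnpo3 (SD, n = 4 each).

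Myom3 (ENSMUSG00000037139) is a myomesin known mainly from skeletal muscle, and the deposited coordinates place it on the plus strand of chr4:135487026-135542875, in GRCm39. In WT Ctr its 4 libraries were at 4.27, 4.62, 4.52 and 4.2 CPM. In WT Tnpo3 they were at 2.94, 4.41, 5.76 and 5.05 CPM. The WT groups overlapped, and WT Tnpo3 was the more spread of them. In P635L Ctr the libraries were at 20.5, 24.7, 18.6 and 17.8 CPM, and in P635L Tnpo3 at 9.4, 9.51, 7.88 and 14.2 CPM. All P635L Ctr libraries lay above all P635L Tnpo3 libraries, which in turn lay above all WT libraries. Between P635L Ctr and WT Ctr the log2 fold change was 2.21 (SE 0.2, edgeR adjusted p = 8.31e-07). It was -0.99 (SE 0.19, edgeR adjusted p = 0.00641) between P635L Tnpo3 and P635L Ctr, and 1.22 (SE 0.2, edgeR adjusted p = 0.00164) between P635L Tnpo3 and WT Ctr. Myom3 thus stayed 2.33-fold above WT Ctr in the mutant hearts given Tnpo3. These 3 comparisons share control libraries and are not independent of each other. In WT hearts the virus made a difference of 0.05 on the log2 scale (SE 0.2, edgeR adjusted p = 1). The difference of the virus effect between genotypes, tested as an interaction, was -1.04 (SE 0.27, edgeR adjusted p = 0.108). That interaction passed the threshold without P635L Tnpo3 replicate 4 (-1.24, edgeR adjusted p = 0.0288) and without WT Tnpo3 replicate 1 (-1.2, edgeR adjusted p = 0.0403). The authors' deposited table gives a log2 fold change of WT Ctr over P635L Ctr of -2.23 for Myom3.

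**Figure D1:**
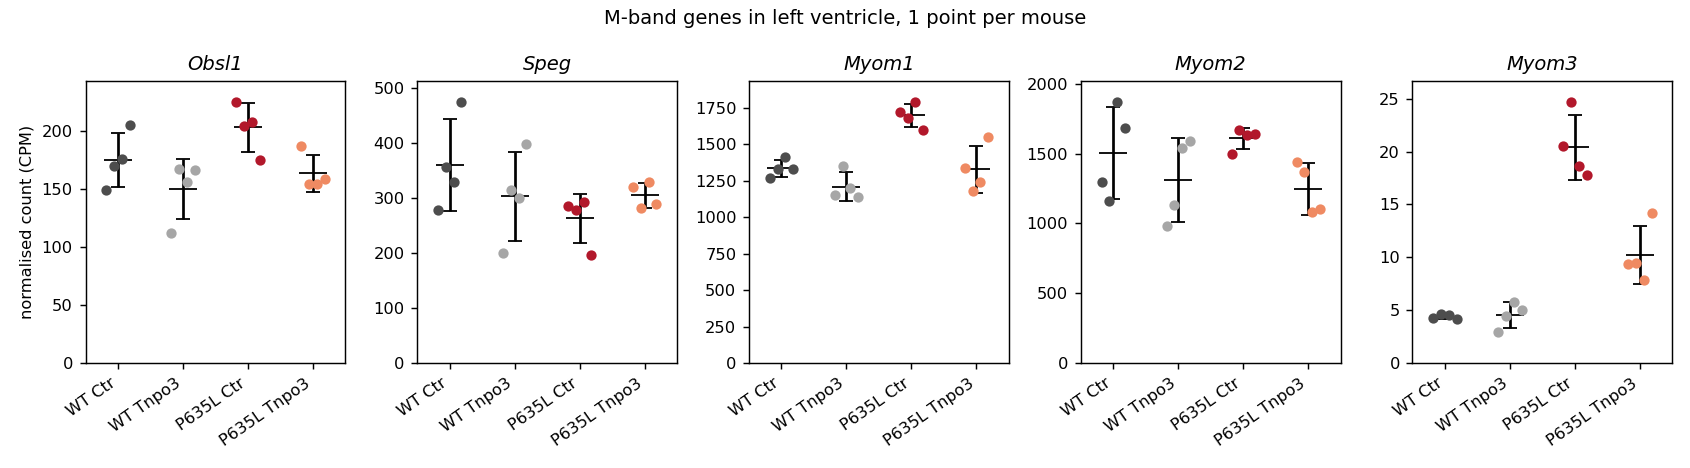
Normalised counts of the 5 genes (vertical axis, CPM, from 0) in the 4 groups, with 1 point per mouse, the horizontal bar at the mean and the error bar at 1 SD. Myom3 lies between 17.8 and 24.7 CPM in P635L Ctr, between 7.88 and 14.2 CPM in P635L Tnpo3 and at 5.76 CPM or below in the WT groups, while all 4 groups of Speg overlap.

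The summed level of 7 skeletal muscle markers was 3.16 to 4.25 CPM in WT Ctr, 12.4 to 15.6 in P635L Ctr and 6.6 to 8.57 in P635L Tnpo3. Of the 4 markers that passed the filter on low counts, edgeR called Tnnt3 alone in P635L Ctr. Tnnt3, the fast skeletal troponin T, ranged from 0.784 to 1.33 CPM in WT Ctr, from 9.49 to 12.3 in P635L Ctr, where it was most of the sum, and from 2.44 to 6.07 in P635L Tnpo3. It rose in P635L Ctr by 3.3 on the log2 scale (SE 0.29, edgeR adjusted p = 4.67e-07) and fell with the virus in mutant hearts, with a log2 fold change of -1.65 (edgeR adjusted p = 0.0013). Mylpf, Pvalb and Actn3 had log2 fold changes of 0.33, 0.67 and -0.07 in P635L Ctr (edgeR adjusted p = 0.409, 0.585 and 0.961). The defining fast myosin Myh4 was at 0 in every library of WT Ctr, P635L Ctr and P635L Tnpo3, and Myh1 and Myh2 did not exceed 0.272 CPM in any library. The fibroblast markers summed to 830 to 1360 CPM in WT Ctr, 1270 to 1900 in P635L Ctr and 917 to 1290 in P635L Tnpo3. With the virus in mutant hearts, Pdgfra, Lum, Dcn, Col1a1 and Col3a1 had log2 fold changes of -0.92, -0.96, -0.64, -0.86 and -0.31. Of these only Col3a1 was not called (edgeR adjusted p = 0.556). The atrial markers summed to 151 to 410 CPM in WT Ctr, 5140 to 9800 in P635L Ctr and 919 to 4510 in P635L Tnpo3. Nearly all of the atrial sum was Nppa, the gene of atrial natriuretic peptide, at 264 ± 107 CPM in WT Ctr and 7540 ± 1960 in P635L Ctr (SD, n = 4 each). The other atrial markers did not show that difference: Myl4 had a log2 fold change of 0.55 (edgeR adjusted p = 0.279), and Sln, Myl7 and Bmp10 were at 0.17 CPM or below in P635L Ctr. The part of the skeletal, fibroblast and atrial markers in the Myom3 result was not tested.

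The promoter of Myom3 is shown because this gene had the largest change of the 5. These are the 250 bases before its start on the plus strand, chr4:135759465-135759714 in GRCm38.p6, from RefSeq, with the match to the motif of MEF2, a muscle transcription factor, in capitals. The table of promoters held entries for Obsl1, Speg, Myom1 and Myom3.
Myom3 promoter: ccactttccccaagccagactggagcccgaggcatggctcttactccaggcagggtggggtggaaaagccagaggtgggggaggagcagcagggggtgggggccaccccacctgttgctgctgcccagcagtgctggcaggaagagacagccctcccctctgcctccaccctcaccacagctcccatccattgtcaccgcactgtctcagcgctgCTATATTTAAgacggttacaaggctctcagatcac
The match begins 35 bases before the start and is the only one in this window on either strand. A MEF2 match was present in the same window of 250 bases before the start in 2.92% of 32851 promoters. Other motifs were searched there too: CANNTG matched at 1 place, and CATTCC and TATAAA at 0. These were present in 66.2%, 12.6% and 12.4% of the promoters. The promoters of Obsl1, Speg and Myom1 were not examined singly, so the site cannot be called particular to Myom3. Whether the site is bound is not measured here.

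Myom1 (ENSMUSG00000024049), the myomesin of all striated muscle, lies on the plus strand of chr17:71309628-71433851 in GRCm39. Its libraries were at 1270, 1330, 1410 and 1330 CPM in WT Ctr and at 1720, 1680, 1790 and 1600 CPM in P635L Ctr. With the Tnpo3 virus they were at 1150, 1350, 1200 and 1140 CPM in WT and at 1340, 1180, 1240 and 1550 CPM in P635L. P635L Ctr stood above every library of the other 3 groups, and those 3 groups overlapped. Myom1 rose in P635L Ctr against WT Ctr by 0.35 on the log2 scale (SE 0.11, edgeR adjusted p = 0.039). The call was close to the threshold and was lost on leaving out any 1 library of WT Ctr or P635L Ctr, with adjusted p between 0.0505 and 0.0954 and a log2 fold change of 0.32 to 0.38. It was also lost without WT Tnpo3 replicate 3 (edgeR adjusted p = 0.05) or P635L Tnpo3 replicate 1 (edgeR adjusted p = 0.0537). Those libraries belong to neither group compared, but the filter, scaling, spread and adjustment were all redone without them. Over all 25 alternatives the adjusted p was under 0.05 in 12 and not in 13. The authors' deposited DESeq2 log2 fold change of WT Ctr over P635L Ctr was -0.36 for Myom1 (DESeq2 adjusted p = 0.000312), from the same libraries. Between P635L Tnpo3 and P635L Ctr the log2 fold change was -0.36 (SE 0.11, edgeR adjusted p = 0.0732), which did not pass. That fall passed in 5 of the 25 alternatives and not in 20. It passed without P635L Tnpo3 replicate 4 (-0.44, edgeR adjusted p = 0.0399) and with only those 2 groups fitted (-0.36, edgeR adjusted p = 0.0204). By DESeq2 it passed as well (-0.35, DESeq2 adjusted p = 0.00604). So it did with the high-Xist libraries left out (-0.35, edgeR adjusted p = 0.0355). The last passing setting dropped those where ENSMUSG00000119584 was abundant (-0.36, edgeR adjusted p = 0.0357). P635L Tnpo3 and WT Ctr differed by -0.01 (SE 0.11, edgeR adjusted p = 0.967). Myl12a, at 432 CPM, overlaps the first bases of Myom1 on the other strand, and whether strand was used in counting is not stated. The genes that overlap Obsl1, Speg and Myom2 on the other strand were at 0.92, 0.106 and 0.0911 CPM, and Myom3 had no such overlap.

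Myom2 (ENSMUSG00000031461), also called M-protein, lies on the plus strand of chr8:15107653-15183541 in GRCm39. It was at 1300, 1160, 1870 and 1680 CPM in WT Ctr and at 1500, 1670, 1630 and 1640 CPM in P635L Ctr. With the Tnpo3 virus the libraries were at 981, 1130, 1540 and 1590 CPM in WT and at 1440, 1370, 1080 and 1100 CPM in P635L. The WT Ctr libraries spanned those of P635L Ctr, while P635L Tnpo3 lay below P635L Ctr without overlap. The log2 fold change was 0.1 (SE 0.17, edgeR adjusted p = 0.741) for the mutation and -0.37 (SE 0.17, edgeR adjusted p = 0.258) for the virus in mutant hearts. The latter passed only with those 2 groups fitted (edgeR adjusted p = 0.0259).

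Obsl1 (ENSMUSG00000026211), obscurin-like 1, lies on the minus strand of chr1:75455954-75483096 in GRCm39. It was at 149, 170, 176 and 205 CPM in WT Ctr and at 225, 204, 208 and 175 CPM in P635L Ctr. With the Tnpo3 virus it was at 112, 167, 156 and 166 CPM in WT and at 187, 154, 154 and 159 CPM in P635L. All neighbouring groups overlapped. Its log2 fold change was 0.21 (SE 0.14, edgeR adjusted p = 0.319) in P635L Ctr against WT Ctr and -0.31 (SE 0.14, edgeR adjusted p = 0.219) in P635L Tnpo3 against P635L Ctr. The former was 0.36 without the libraries rich in ENSMUSG00000119584 and 0.33 without those with high Xist.

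Speg (ENSMUSG00000026207) lies on the plus strand of chr1:75351941-75408964 in GRCm39, in the same region as Obsl1 but without overlapping it. Its libraries were at 278, 356, 329 and 474 CPM in WT Ctr and at 285, 277, 292 and 197 CPM in P635L Ctr. With the Tnpo3 virus they were at 200, 315, 299 and 397 CPM in WT and at 320, 281, 328 and 288 CPM in P635L. The P635L Tnpo3 libraries fell within the range of WT Ctr, and 2 P635L Ctr libraries, at 277 and 197 CPM, lay below it. The log2 fold change was -0.45 (SE 0.19, edgeR adjusted p = 0.12) for the mutation and 0.21 (SE 0.19, edgeR adjusted p = 0.606) for the virus in mutant hearts. The former was -0.29 without WT Ctr replicate 4, -0.17 without the libraries rich in ENSMUSG00000119584 and -0.25 without those with high Xist, and the latter 0.1 without P635L Ctr replicate 4. Obsl1 and Speg deviated together from their group means, with a Pearson r of 0.89 over 16 libraries, against 0.4 for their levels. This is a description, since both genes were read from the same libraries. In P635L Tnpo3 against WT Ctr the log2 differences of Myom2, Speg and Obsl1 were -0.27, -0.24 and -0.1, with edgeR adjusted p of 0.43, 0.528 and 0.74. In WT Tnpo3 against WT Ctr Myom1, Myom2, Speg and Obsl1 differed by -0.14, -0.2, -0.25 and -0.22, each with an edgeR adjusted p of 1. Without WT Ctr replicate 4 the Speg and Obsl1 values there were -0.08 and -0.13, and without WT Ctr replicate 3 that of Myom2 was -0.07.

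**Figure D2:**
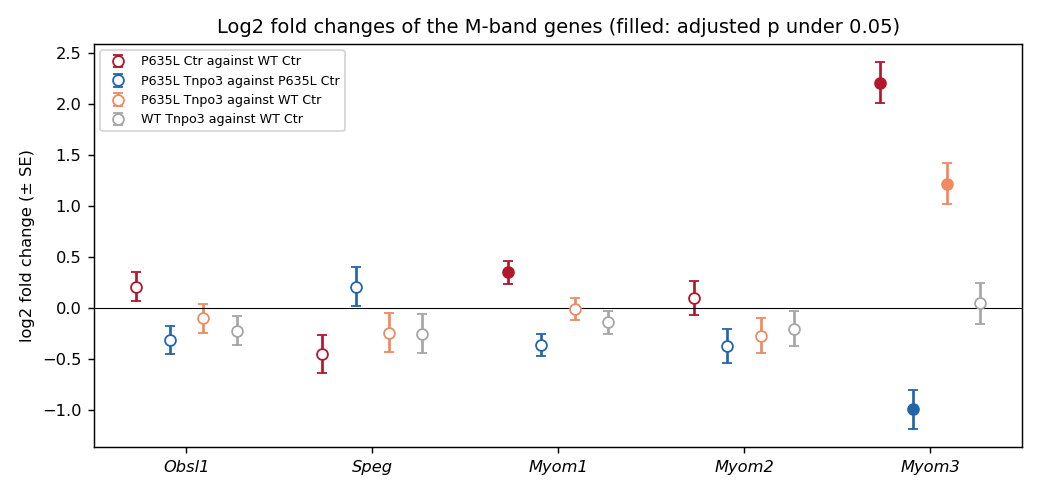
Log2 fold changes of the 5 genes (vertical axis) in 4 comparisons, with error bars of 1 SE and filled points where the edgeR adjusted p was under 0.05. Filled points stand at 2.21, -0.99 and 1.22 for Myom3 and at 0.35 for Myom1.

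Across the 5 genes, 2 of 5 were called in P635L Ctr against WT Ctr, both higher, where 14.2% of all genes tested were called and 7.07% were called higher. In P635L Tnpo3 against P635L Ctr 1 of 5 was called, lower, against 3.88% of all genes and 2.25% called lower, and in P635L Tnpo3 against WT Ctr 1 of 5, higher, against 3.07% and 1.49% called higher. With edgeR, 0 of 5 were called in WT Tnpo3 against WT Ctr, where 0.00536% of all genes were, and 0 of 5 in the interaction, where 0.504% were. At an unadjusted p under 0.05 these counts were 0 and 1 of 5, beside 597 (3.2%) and 2321 (12.4%) of all 18662 genes. DESeq2 called 0 and 1 of the 5, beside 4 and 414 of all genes. The median log2 fold change of the 5 genes was 0.21 for the mutation, beside -0.05 over all genes, and -0.36 for the virus in mutant hearts, beside 0.01. In WT hearts the median was -0.2, beside -0.02.

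The RNA of these long genes was not covered evenly, and the evenness varied between libraries. Junction reads on a 5′ exon of Myom1 were 1.98, 12.4, 2.45 and 15.8% of those on a 3′ exon in the 4 listed positions of WT Ctr. The values were 2.43 to 15.3% in WT Tnpo3, 5.13 to 9.78% in P635L Ctr and 3.59 to 5.07% in P635L Tnpo3. For Obsl1 they were 28.7 to 42.5% in WT Ctr, 26.8 to 55% in WT Tnpo3, 26.3 to 50.3% in P635L Ctr and 16.2 to 31.2% in P635L Tnpo3. The part of this coverage in the gene levels was not tested.

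**Figure D3:**
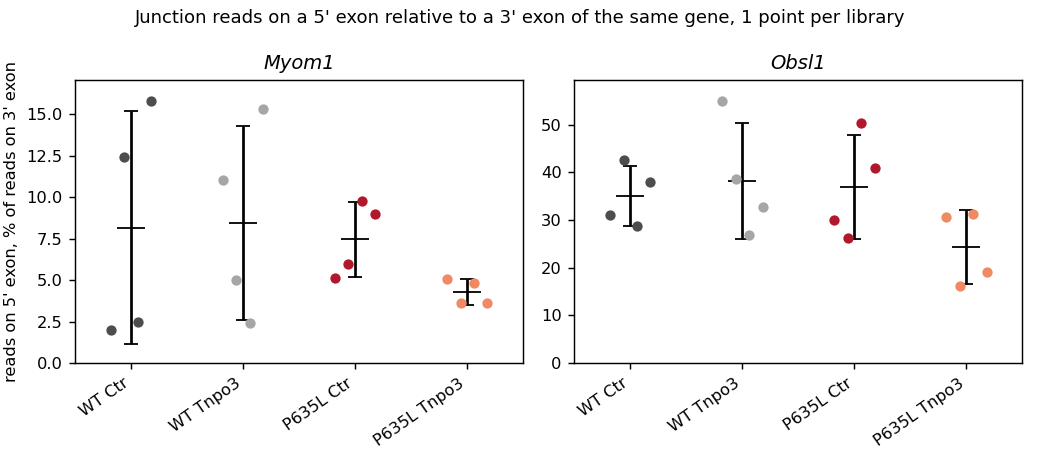
Junction reads on a 5′ exon as a percentage of those on a 3′ exon of the same gene (vertical axis, from 0), for Myom1 and Obsl1, with 1 point per library, the mean and 1 SD. Myom1 spans 1.98 to 15.8% in WT Ctr and 3.59 to 5.07% in P635L Tnpo3.

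The genes known to work with these proteins were read from 3 lists. Of 11 M-band neighbours, 1 rose and 2 fell in P635L Ctr against WT Ctr, with a median log2 fold change of 0.01 beside -0.05 over all genes. Of all genes tested, 7.07% were called higher and 7.14% lower there. Sqstm1, an autophagy receptor, went from 475 ± 45.5 to 714 ± 29.2 CPM (SD, n = 4 each), up by 0.59 on the log2 scale (edgeR adjusted p = 0.00387). Ckm, the muscle creatine kinase found at the M-band, fell from 1310 ± 153 to 640 ± 145 CPM (SD, n = 4 each), by -1.03 on the log2 scale (edgeR adjusted p = 0.00102). Capn3, a muscle protease that binds titin, was at 1.09 ± 0.377 CPM in WT Ctr and 0.392 ± 0.132 in P635L Ctr (SD, n = 4 each), a difference of -1.46 on the log2 scale (edgeR adjusted p = 0.0388). The Capn3 call was lost in 10 of 25 alternatives, with adjusted p up to 0.119, among them leaving out WT Ctr replicates 1, 2 or 3 or any P635L Ctr library. In P635L Tnpo3 against WT Ctr the Capn3 log2 fold change was -2.56 (edgeR adjusted p = 0.00588). That rests on few reads, with 10, 3, 13 and 9 counts in the P635L Tnpo3 libraries (0.182 ± 0.0896 CPM, SD, n = 4). In WT Tnpo3 against WT Ctr it was -1.38 and not called. Capn3 was the only neighbour called in P635L Tnpo3 against WT Ctr, where 1.58% of all genes tested were called lower. Trim63, a ubiquitin ligase of the M-band, fell with the Tnpo3 virus in mutant hearts from 172 ± 17.2 to 118 ± 8.88 CPM (SD, n = 4 each), by -0.54 (edgeR adjusted p = 0.0121). Leaving out P635L Ctr replicate 4 or P635L Tnpo3 replicate 3 ended that call (adjusted p = 0.0566 and 0.0523). The other 10 neighbours did not pass in that comparison, where 2.25% of all genes tested were called lower.

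Of 4 partners of Obsl1 in the 3M complex, which regulates growth through a ubiquitin ligase, Cul7, its cullin scaffold, rose in P635L Ctr. It alone of the 4 was called by edgeR there, beside 7.07% of all genes called higher. It went from 46.5 ± 4.56 to 64.3 ± 3.95 CPM (SD, n = 4 each), up by 0.47 on the log2 scale (edgeR adjusted p = 0.013). Without the 3 libraries rich in ENSMUSG00000119584 it was 0.4 (edgeR adjusted p = 0.0686). Of 5 partners of Speg, which include the calcium release channel Ryr2 and the junction protein Jph2, 0 were called by edgeR in any of the 5 comparisons. The share of all genes called in these comparisons ran from 0.00536% to 14.2%.

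The genes whose levels followed each member most closely over the 16 libraries were found among 12490 genes by Pearson r of log2 CPM. For Myom3 they were Mmp23 (0.985), Fzd2 (0.979) and Ccdc68 (0.971), and for Myom1 Klhl40 (0.946), Lrrcc1 (0.929) and Lonp1 (0.917). For Speg they were Mhrt (0.948), Gm31251 (0.931) and Thoc2l (0.922). For Obsl1 they were Elmo3 (0.891), Klc1 (0.886) and Mib2 (0.885), and for Myom2 Os9 (0.85), Nrxn2 (0.849) and Hpf1 (0.839). Within groups the r of Myom3 with Mmp23 was 0.771 and that of Speg with Mhrt 0.945. These values describe the libraries, which share groups and depth.

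Splicing was read from the authors' deposited tables, which give an inclusion level from 0 to 1 per library and an rMATS false discovery rate (FDR). The 72 distinct events comprised 36 of Myom1, 17 of Speg, 10 of Myom2, 7 of Obsl1 and 2 of Myom3, and 30 of them stood in all 3 tables. An event was called where the FDR was under 0.05, inclusion differed by 0.1 or more, and both groups had 10 or more junction reads per library on average. By that rule 0 of 44 events with enough reads were called in P635L Ctr against WT Ctr, where 2.5% of all events were. Likewise 0 of 40 were called in P635L Tnpo3 against WT Ctr, where 2.11% were, and 0 of 38 in WT Tnpo3 against WT Ctr, where 0.928% were. At an unadjusted rMATS p under 0.05 there were 2 of 51, 1 of 44 and 1 of 42 events, reads aside, beside 13%, 11.9% and 9.01% of all events. The limma fit gave 9 of 44, 1 of 40 and 1 of 38 tested events at that level, beside 14.6%, 12.7% and 7.87% of all it tested, and 0 of these events after adjustment. In P635L Tnpo3 against P635L Ctr, limma called 0 of the 21 events it tested, out of 26 with enough reads, beside 0.106% of all events. There, 3 of the 21 had an unadjusted p under 0.05, beside 11.6% of all events tested. Most events were exons kept in nearly all transcripts. Of the 44, 40 and 38 events, 35, 32 and 30 had an inclusion above 0.95 in both groups. The median absolute difference was 0.001, 0.002 and 0.002, beside 0.013, 0.014 and 0.014 over all events.

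**Figure D4:**
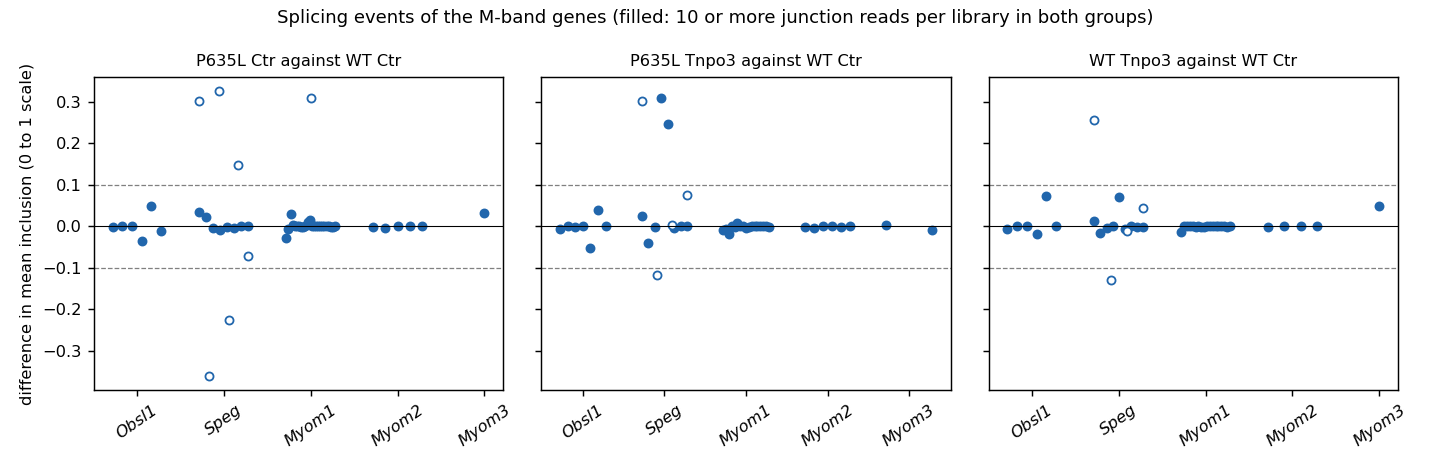
Inclusion difference from WT Ctr (vertical axis, on the 0 to 1 scale) of every event of the 5 genes in the 3 deposited tables, with filled points for 10 or more junction reads per library in both groups and dashed lines at 0.1 and -0.1. The filled points outside the lines are 2 overlapping Speg exons in P635L Tnpo3, at 0.309 and 0.247, each with an FDR of 1. For the event at 0.309, P635L Ctr fell below the read minimum.

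Myom1 is known for an embryonic heart form with an extra segment in the middle of the protein. The tables do not name the 294-base exon shown above as that segment. In the files it lies at chr17:71389198-71389491 in GRCm39, and it was skipped in most transcripts. Its inclusion was 0.02, 0.059, 0.042 and 0.023 in the 4 listed positions of WT Ctr and 0.047, 0.053, 0.057 and 0.047 in P635L Ctr. It was 0.056, 0.023, 0.046 and 0.018 in P635L Tnpo3. The groups overlapped, and P635L Ctr was the least spread. The means differed by 0.015 between P635L Ctr and WT Ctr, with an rMATS FDR of 0.0346, a size below the rule's 0.1, and a limma adjusted p of 0.426. This exon, the Obsl1 exon of 276 bases and the Speg acceptors were chosen after their values were seen. Between P635L Tnpo3 and P635L Ctr the difference was -0.015 (exact permutation p = 0.2 over 70 assignments, which cannot go below 0.0286). Among Myom1 events with enough reads the largest difference was 0.031, of a mutually exclusive exon pair in P635L Ctr (FDR 0.454).

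The 276-base exon of Obsl1, at chr1:75468711-75468986 in GRCm39, was included in more transcripts than not. Its inclusion was 0.565, 0.612, 0.584 and 0.688 in WT Ctr and 0.54, 0.735, 0.457 and 0.645 in WT Tnpo3. In P635L Ctr it was 0.666, 0.572, 0.551 and 0.525, and in P635L Tnpo3 0.626, 0.59, 0.574 and 0.455. All 4 groups overlapped, with differences from WT Ctr of -0.034 for P635L Ctr, -0.051 for P635L Tnpo3 and -0.018 for WT Tnpo3, each with an FDR of 1. A shorter form of the same exon, 75468872 to 75468986, had the largest difference of Obsl1, 0.074 in WT Tnpo3 (FDR 1), and shares a boundary with the longer one.

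**Figure D5:**
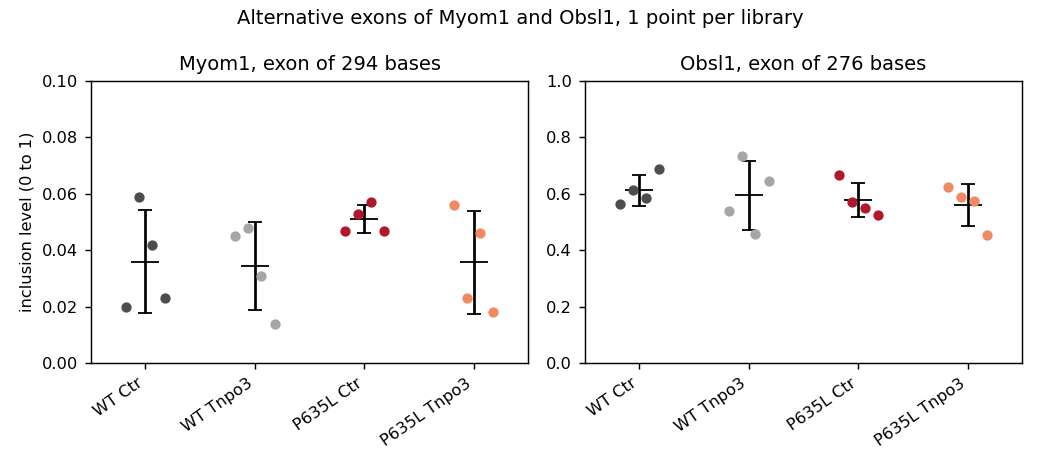
Inclusion level (vertical axis, 0 to 0.1 for Myom1 and 0 to 1 for Obsl1) of the alternative exons of 294 and 276 bases in the 4 groups, with 1 point per library, the mean and 1 SD. P635L Ctr lies between 0.047 and 0.057 for Myom1, within the range of WT Ctr, and all groups of Obsl1 overlap.

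The Speg exon with paired acceptors, at 75360678 and 75360683 in GRCm39, carried the lowest FDRs of the 5 genes. Joined to the first exon at 75351941, use of the upstream acceptor was 1, 0.324, 0.589 and 0.884 in WT Ctr, on 26 reads in all. It was 1 in every library of P635L Ctr and of P635L Tnpo3, on 20 and 14 reads, and 0.957 on average in WT Tnpo3, on 15 reads. The rMATS FDR was 0.00147, 0.00141 and 0.00281, and every comparison fell below the read minimum. All 3 comparisons share the WT Ctr libraries. Joined to the exon at 75359781, the same acceptor went the other way in P635L Ctr, with a difference of -0.359 (FDR 1). Inclusion of the 35-base exon, joined to the first exon, had the largest difference of any event with enough reads. That difference was 0.309 in P635L Tnpo3 against WT Ctr (FDR 1). The P635L Tnpo3 libraries were at 0.322, 0.245, 0.78 and 1, against 0.107, 0.363 and 0.363 in the 3 WT Ctr libraries with reads. P635L Ctr, below the read minimum for this event, had a mean inclusion of 0.603, beside 0.587 in P635L Tnpo3.

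Myom2 was spliced almost uniformly, while Myom3 had only 2 listed events, too few to describe its splicing. The largest difference of Myom2 was -0.003, at an exon kept in 0.997 of transcripts or more. Myom3 had 1 event in all 3 tables, the exon at chr4:135534480-135534588 in GRCm39, with an inclusion of 0.95 in WT Ctr, 0.982 in P635L Ctr, 0.954 in P635L Tnpo3 and 1 in WT Tnpo3. Its junctions had a mean of 12 reads per library in WT Ctr and 125.5 in P635L Ctr, so the WT value is the less precise.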

How the data were processed

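Polyadenylated RNA of 16 left ventricles was sequenced by the authors from stranded libraries, per the labels' protocols. In the deposited table of genes the values are raw counts. STAR 2.7.9a, featureCounts 2.0.6, DESeq2 and the build GRCm39 are named in the submitters' processing notes. The annotation, the use of strand in counting and the rMATS version are not given in the sources used here. The authors' deposited DESeq2 tables give log2 fold changes and p-values. The authors' deposited rMATS tables give inclusion levels, p-values and FDRs per event, with the inclusion difference as a score. They list 4 libraries per group without their order, so libraries are called there by listed position.

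The test of counts was the quasi-likelihood F test of edgeR 4.0.16 under R 4.3.3 (TMM factors, filterByExpr, 1 mean per group, 12 residual degrees of freedom). Of 56953 genes 18662 were tested, adjusted by Benjamini-Hochberg over all of them, and called at an adjusted p under 0.05, two-sided. limma 3.58.1 was run on log2 ratios of inclusion reads over skipping reads, each plus 0.5, with precision weights. Both tests were tested on simulated data. Labels do not say whether mice shared a litter or batch, so p-values measure the spread between these mice. Members and lists were chosen with earlier results of these data known. Partner genes are given with values where called in at least 1 comparison, and events where called or else the largest difference of each gene. Alternatives were other scalings, DESeq2 1.42.0, no filter, a replicate block, only the groups compared, a minimum fold change and libraries left out.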

Additional observations from a re-analysis of the deposited data

Results flagged for a closer look

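Of 32 groups of 4 values examined for a library far from the others, 3 were marked by Dixon's ratio of gap to range at its 95% critical value, which chance exceeds in about 1 group in 20. Obsl1 in P635L Tnpo3 replicate 1 was at 187 CPM, with the other 3 libraries at 154 to 159 CPM. Speg in P635L Ctr replicate 4 was at 197 CPM, with the others at 277 to 292 CPM. The upstream Speg acceptor was used at 0.827 in 1 WT Tnpo3 library, on 6 reads, with the other 3 libraries at 1. With those 3 at the upper limit, any lower value gives a ratio of 1, so the rate of 1 in 20 does not apply to this flag.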

How the results depend on the processing

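The 3 calls of Myom3 kept an adjusted p under 0.05 in each of 25 alternatives, with log2 fold changes of 2.13 to 2.27, -1.19 to -0.87 and 1.02 to 1.33. A minimum absolute log2 fold change of 1 removed the call of -0.99. The count of 2 genes called in P635L Ctr against WT Ctr was 1 with that minimum, with no filter, with the replicate block and without the libraries rich in ENSMUSG00000119584, and 1 to 2 on leaving out single libraries. In P635L Tnpo3 against P635L Ctr the count of 1 was 0 with the minimum fold change, 2 without the rich libraries, without those with high Xist and by DESeq2, and 4 with only the groups compared, and single libraries gave 1 to 2. In the interaction the count of 0 was 1 with no filter and by DESeq2, and 0 to 1 without single libraries. Event counts of 0 were 1 in each deposited table with no read minimum, which is the Speg acceptor. The cause of these changes was not tested, apart from the minimum itself. Values near 0 changed sign for 4 pairs of gene and comparison, called in 0 of the alternatives. Myom1 in P635L Tnpo3 against WT Ctr (-0.01) was 0.01 with median-ratio factors, by DESeq2 and without WT Ctr replicate 2, 0.04 with upper-quartile factors and 0.03 with no filter. It was 0.08 without P635L Tnpo3 replicate 2, and 0.02 in the other 8 settings that turned it. Obsl1 there was 0.04 without the rich libraries and 0.02 without high Xist, and Speg 0.04 without the rich libraries. Myom3 in WT Tnpo3 against WT Ctr was -0.09 and -0.01 without WT Tnpo3 replicates 3 and 4, and -0.01 without high Xist, within a range of -0.09 to 0.21 over single libraries left out. The samples were treated as unpaired. Same-numbered libraries correlated at -0.257 to 0.552. Those of WT Ctr and WT Tnpo3 correlated at 0.096 to 0.552, so that 1 of those 4 fell short of 0.1. Differently numbered libraries were not compared, so these correlations cannot decide whether the replicate numbers pair the samples. With the replicate block the Myom1 call in P635L Ctr was lost (0.35, edgeR adjusted p = 0.0686) and so was that of Capn3 (-1.45, edgeR adjusted p = 0.062). Depth limits the Speg acceptor, with 14 to 26 reads per group.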
